A study of Zea mays with 6 samples.

Results

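The most abundant transcripts of the wild-type maize endosperm were defined as the genes that averaged 500 FPKM or more over the wild-type libraries. FPKM is the number of fragments scaled to the length of the transcript and to the depth of the library. Of 44303 genes in the deposited table, 74 reached that level. A further rule left out 7 of them (Zm00001eb030130, Zm00001eb030160, Zm00001eb166610, Zm00001eb166620, Zm00001eb166950, Zm00001eb313790 and Zm00001eb176800), so that 67 members remained, 0.151% of all genes. The wild-type values chose the members, so levels, shares, ranks, fold changes and calls of the members are given as descriptions.

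The transcriptomes were RNA-seq libraries of endosperm at 16 days after pollination (DAP). The mutant group was *zmnac128 zmnac130*, which lacks both of the NAC transcription factors ZmNAC128 and ZmNAC130, in F2 offspring of B73 and KN5585. The wild-type group (WT) came from the same kind of F2 offspring and was nontransgenic. The knockout lines had been made in the inbred KN5585 and were crossed with the inbred B73, and RNA was taken from more than 3 endosperms, so that a library is a mixture of segregating kernels. The knocked-out genes themselves were not analysed here, since no source used here ties their names to IDs. Of 3 samples deposited per genotype, replicate 3 held the same value as replicate 1 in all 44303 genes, in both genotypes. The deposited values of replicate 3 are thus a copy of those of replicate 1. The study lists separate read counts for 3 libraries per genotype in each of its sets from this background, which were grown in different years. The copy therefore does not show that the samples were the same material. Each such pair was counted as 1 sample, and 2 libraries per genotype were compared. The study describes its samples as independent. Where they share plants, p-values measure only the spread between these libraries.

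The endosperm fills most of the maize kernel and stores starch and protein. Its storage proteins are mainly zeins, prolamins that are made on the endoplasmic reticulum and packed into protein bodies, and the zein genes form large families with near-identical copies. A few storage and defence transcripts therefore usually make up much of the RNA of a filling endosperm, beside the enzymes that turn sucrose into starch. NAC proteins are plant transcription factors, and ZmNAC128 and ZmNAC130 are known for their role in grain filling.

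The depth, read from the steps of the FPKM values, was 30696032 and 29312397 fragments in the mutant libraries and 28478576 and 26317317 in the WT libraries. The steps do not tell whether a unit counted here as a fragment is a read or a pair of reads. Each member had between 165 and 1569601 fragments in a library, and in the WT libraries no member had fewer than 1884. The median ratio between the libraries of a genotype, higher over lower, was 1.15 over the 67 members in *zmnac128 zmnac130* and 1.07 in WT. It passed 1.5 for 2 members in each genotype, with the highest ratio at 1.90 for Zm00001eb267000 in the mutant and 1.61 for Zm00001eb281380 in WT.

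The members took a smaller share of all FPKM in *zmnac128 zmnac130*. They held 28.3% and 26.0% of the summed FPKM of the mutant libraries, against 35.4% and 33.4% in the WT libraries, and the genotypes did not overlap. The mean share was 27.2 ± 1.64% in the mutant and 34.4 ± 1.38% in WT (SD, n = 2 each), a difference of -7.22 percentage points. Counted as fragments, without division by gene length, the shares were 22.6 ± 1.28% in the mutant and 26.9 ± 1.23% in WT. The WT values chose the members, and that choice by itself favours a larger share in WT. For 82 genes chosen by the mean over both genotypes, the shares of FPKM were 31.2% in the mutant and 35.2% in WT. In bulk tissue, fewer cells of a type and less RNA per cell cannot be told apart.

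The smaller share lay in the most abundant members, although not in each of them. The 4 highest members in WT, Zm00001eb267570, Zm00001eb170070, Zm00001eb303160 and Zm00001eb099950, together held 5.47 ± 0.599% of all FPKM in *zmnac128 zmnac130* and 13.4 ± 0.610% in WT. The 10 highest held 12.6 ± 1.73% in the mutant and 23.4 ± 1.10% in WT. The other 57 members went the other way, with 14.6 ± 0.0866% in the mutant and 11.0 ± 0.272% in WT, a difference of 3.66 percentage points. The 7 genes left out by the rule held 1.49 ± 0.211% in the mutant and 5.04 ± 0.0250% in WT. All of these differences were larger than the spread between the libraries of a genotype. The WT values that enter these differences also set the order of the members. The contrast between the 10 highest and the other 57 is therefore a description. The FPKM were spread over more genes in the mutant, where 452 and 503 genes made up 50% of the sum, against 264 and 328 genes in WT.

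**Figure D1:**
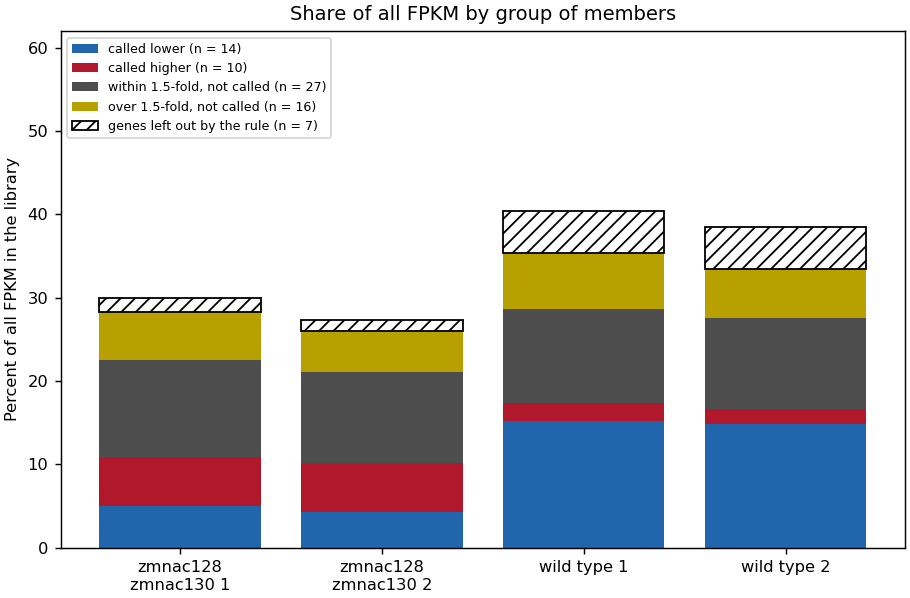
Percent of all FPKM in each library (y axis) held by the members, stacked by how they changed in *zmnac128 zmnac130* (colours) with the 7 genes left out by the rule on top (hatched). The blue segment, the 14 members called lower, is 4.66% on average in the mutant libraries and 15.0% in the WT libraries.

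A member was called higher or lower where limma on log2(FPKM + 1) gave an absolute log2 fold change above 1, which is 2-fold, and a Benjamini-Hochberg adjusted p below 0.05 over the 19082 genes whose mean reached 1 FPKM. All 67 members passed that filter. In *zmnac128 zmnac130*, 14 members were called lower and 10 were called higher, while 7.18% of all genes tested were called lower and 6.43% were called higher. Among the 606 genes with a WT mean of 100 to below 500 FPKM, 10.7% were called lower and 4.79% higher. With the adjusted p alone, and no fold threshold, 23 members passed lower and 18 higher, beside 20.9% of all genes lower and 22.9% higher. Of the members without a call, 27 stayed within 1.5-fold, and the other 16 changed by more than 1.5-fold without a call. The median log2 fold change was 0.00036 over the members and 0.0068 over all genes tested, and 33 members had a lower and 34 a higher mean in the mutant. The values of the genotypes did not overlap for 59 of the 67 members, while 37.2% of all genes tested did not overlap and were lower in the mutant and 38.4% did not overlap and were higher.

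The balance between falls and rises moved with the rule. Among members at 1000 FPKM or more in WT, 10 of 31 were called lower and 3 higher, with a median log2 fold change of -0.39. A set of 82 genes had a mean over both genotypes of 500 FPKM or more, again without the 7 genes. Of these, 12 were called lower and 18 higher, with a median of 0.28. With the 7 genes kept in, 21 of 74 were called lower and 10 higher, with a median of -0.16. Without WT replicate 1, 7 members were called lower and 2 higher, and without WT replicate 2, 8 were called lower and 1 higher. In those fits 23 of the 24 called members still changed by more than 2-fold, and none changed direction.

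**Figure D2:**
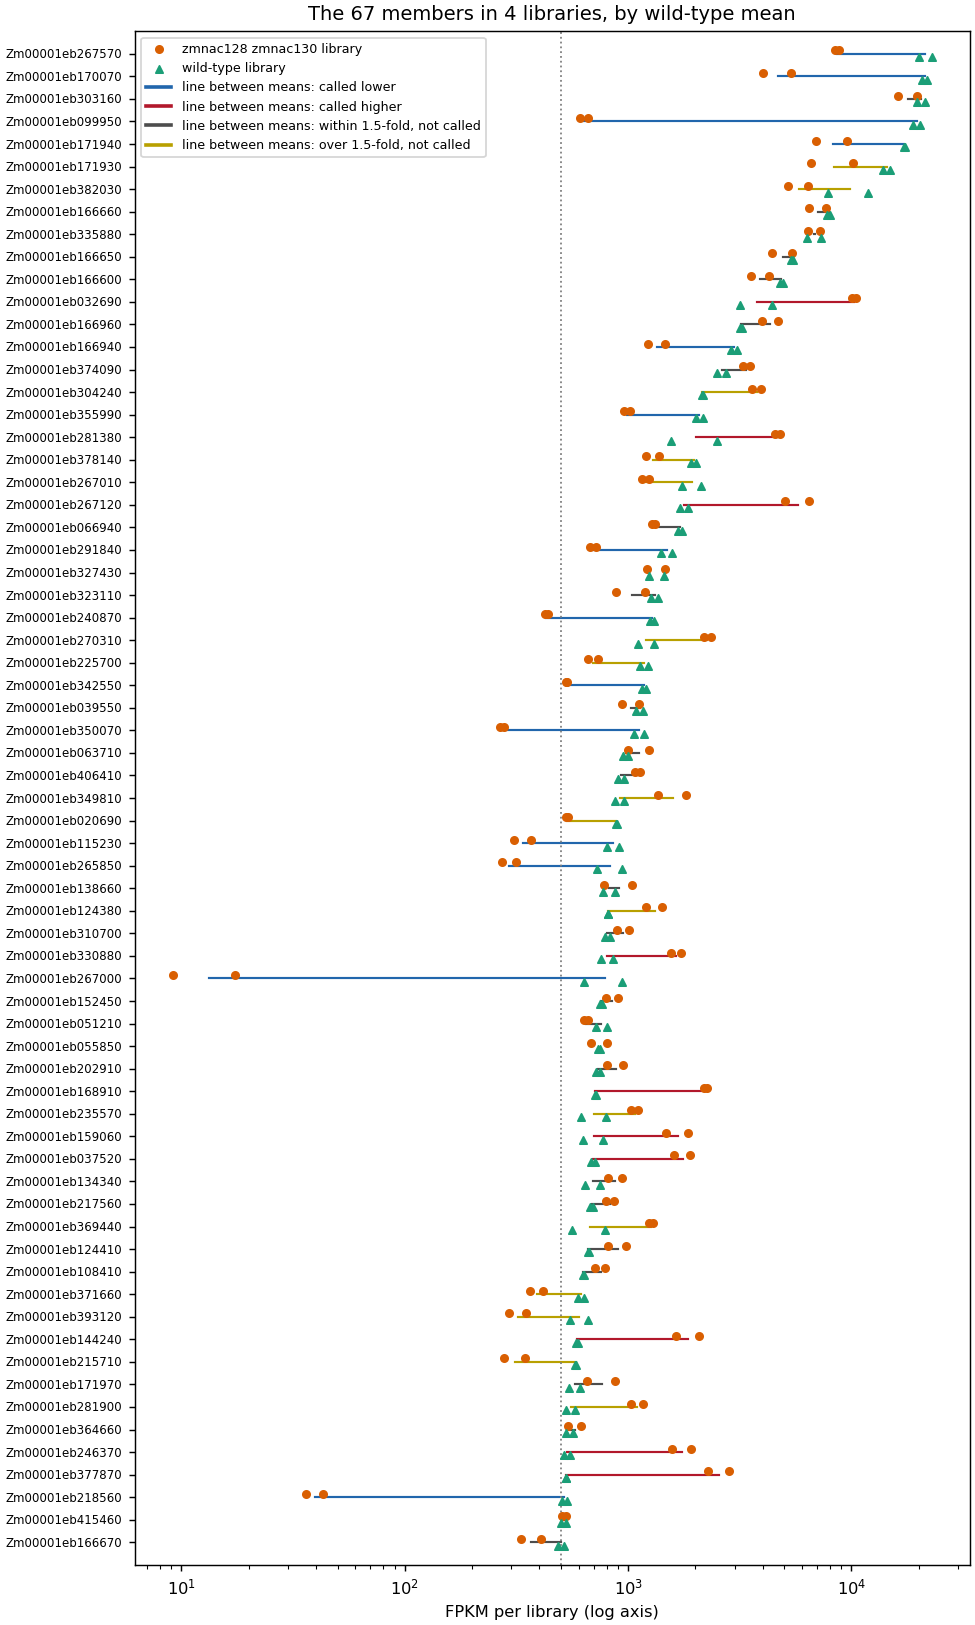
FPKM of the 67 members (rows, ordered by WT mean) in each library on a log axis. Orange circles are the *zmnac128 zmnac130* libraries and green triangles the WT libraries, the line joins the genotype means, and the dotted line marks 500 FPKM. The widest gaps are those of Zm00001eb099950, Zm00001eb267000 and Zm00001eb218560, whose mutant libraries lie far to the left.

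The 14 members that fell had the largest summed change in FPKM. Summed over the 14, they reached 29114 and 25154 FPKM in the mutant libraries, against 94733 and 90409 FPKM in the WT libraries. This was 4.66 ± 0.530% of all FPKM in *zmnac128 zmnac130* and 15.0 ± 0.309% in WT. Of the summed fall of these 14, 87.5% came from Zm00001eb099950, Zm00001eb170070, Zm00001eb267570 and Zm00001eb171940.

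Zm00001eb099950 was the member with the largest fall in absolute FPKM. Its values were 662 and 606 FPKM in *zmnac128 zmnac130*, against 20183 and 18915 FPKM in WT, and the log2 fold change was -4.95 ± 0.17 (SE). It stood at rank 76 in the mutant, against rank 4 in WT. The gene is on the study's list of highly and differentially expressed genes but carries no description there.

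Storage protein genes formed the best-described group among the members. Zm00001eb170070, annotated as the alpha zein z1C2 (chr4:23018068-23018971 of Zm-B73-REFERENCE-NAM-5.0), reached 5385 and 4003 FPKM in *zmnac128 zmnac130* and 21765 and 20779 FPKM in WT. The mutant libraries lay far below both WT libraries, and the log2 fold change was -2.20 ± 0.26. Zm00001eb171940 is described as a partial zein protein, by a record credited to *Acetabularia acetabulum* rather than to maize. It had 9515 and 6949 FPKM in the mutant and 17103 and 17313 FPKM in WT. Its mutant libraries differed more from each other than its WT libraries did, and its log2 fold change of -1.08 ± 0.27 lay close to the 2-fold threshold (adjusted p = 0.0216, limma), with an adjusted p of 0.0543 after median-of-ratios scaling. Without mutant replicate 2, the log2 fold change of Zm00001eb171940 was -0.85, short of the 2-fold threshold. The alpha zein ZG99, Zm00001eb166940, had 1462 and 1224 FPKM in the mutant and 2888 and 3078 FPKM in WT, a log2 fold change of -1.16 ± 0.16. The genotypes did not overlap for any of these 3 genes described as zeins. They are 3 of the 10 genes of the study's nutrient reservoir list, all 10 of which were called lower. The study chose that list on these samples among others, so it is not independent evidence of the direction. Without WT replicate 1 or 2, none of the 3 kept its call, with adjusted p of 0.104 to 0.467 and 0.117 to 0.481 by limma at nearly the same fold changes. Copies of a zein family can share fragments, and no source used here states how the counting split them.

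The other members with a named protein that fell were Zm00001eb350070 and Zm00001eb355990. Zm00001eb350070 encodes a ribosome-inactivating protein, which removes a base from ribosomal RNA, and had 267 and 279 FPKM in *zmnac128 zmnac130* and 1063 and 1178 FPKM in WT. Its log2 fold change was -2.03 ± 0.11, and it moved to rank 217 in the mutant, against rank 37 in WT. Zm00001eb355990, the subtilisin-chymotrypsin inhibitor homolog 1 (chr8:138036912-138037684), a member of a family of inhibitors of serine proteases, had 1016 and 962 FPKM in the mutant and 2163 and 2010.0 FPKM in WT. Both mutant libraries lay below both WT libraries, with a log2 fold change of -1.08 ± 0.13. Without WT replicate 1 or 2, its adjusted p was 0.0912 and 0.0823 by limma, while Zm00001eb350070 kept its call.

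Among the members outside the 10 highest, 2 fell most steeply. Zm00001eb267000 had 17.3 and 9.14 FPKM in *zmnac128 zmnac130*, against 637 and 934 FPKM in WT, and a log2 fold change of -5.82 ± 0.30. It dropped to rank 6810, against rank 48 in WT. Zm00001eb218560 had 36.1 and 43.2 FPKM in the mutant and 532 and 505 FPKM in WT, with a log2 fold change of -3.68 ± 0.11 and rank 2290 in the mutant, against 72 in WT. Neither gene carries a description in the sources used here. Both mutant libraries lay far below both WT libraries in each of them.

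Among the remaining members that fell, Zm00001eb267570 was the most abundant gene of the WT endosperm. It had 8462 and 8796 FPKM in *zmnac128 zmnac130* and 22851 and 19972 FPKM in WT, with a log2 fold change of -1.31 ± 0.26 and rank 3 in the mutant, against rank 1 in WT. Its call was lost without WT replicate 1 (adjusted p = 0.438, limma), without WT replicate 2 (0.398) and with no filter on low values (0.142). Zm00001eb240870, the uncharacterized LOC100193117 (chr5:162871247-162876775), had 423 and 436 FPKM in the mutant and 1309.5 and 1253 FPKM in WT, a log2 fold change of -1.57 ± 0.11. Zm00001eb265850, the uncharacterized LOC100304441 (chr6:39400350-39401990), had 315 and 273 FPKM in the mutant and 725 and 941 FPKM in WT, a log2 fold change of -1.49 ± 0.16. The libraries of the genotypes stood apart for all of them. The last 3 members called lower, Zm00001eb115230, Zm00001eb291840 and Zm00001eb342550, have no description and had log2 fold changes of -1.34, -1.09 and -1.15. The first kept its call without either WT replicate, the second lost it in both fits, and the third lost it without WT replicate 1.

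The 10 members that rose had WT means of 528 to 3774 FPKM, at WT ranks 71 to 16. Summed over the 10, they reached 33795 and 34342 FPKM in *zmnac128 zmnac130*, against 13180 and 11110 FPKM in WT. Their share of all FPKM was 5.85 ± 0.00438% in the mutant and 1.97 ± 0.213% in WT. Of the summed rise, 59.6% came from Zm00001eb032690, Zm00001eb267120 and Zm00001eb281380.

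Enzymes of glycolysis, the pathway that breaks down hexose to pyruvate, were the described members among those that rose. Zm00001eb377870, annotated as enolase 1, which makes phosphoenolpyruvate, had 2276 and 2817 FPKM in *zmnac128 zmnac130* and 529 and 526 FPKM in WT. It had the largest rise of the members on the log2 scale, 2.26 ± 0.15, and moved to rank 19, against rank 71 in WT. Zm00001eb144240, a cytoplasmic fructose-bisphosphate aldolase (chr3:170387755-170390084), which splits the hexose into triose phosphates, had 1642 and 2067 FPKM in the mutant and 597 and 585 FPKM in WT. Every mutant value lay well above both WT values, and the log2 fold change was 1.64 ± 0.15. Enolase 1 kept its call without either WT replicate, while the aldolase had adjusted p of 0.0560 and 0.0588 by limma. Of the 7 genes in the study's glycolysis set, these 2 are members, and over the list 3 were called lower and 4 higher. That list, too, was chosen on these samples among others. No member is among the 8 genes of the starch and sucrose set or the 15 genes of the transporter set in the study's enrichment tables. Those tables cover only the study's 243 highly and differentially expressed genes. They therefore cannot show whether members without a description are starch enzymes or transporters. The transporter set used here is the one of those tables and is not the full list of transporters that the study discusses.

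Zm00001eb032690 came to be the second most abundant gene of the mutant. It had 10021 and 10432 FPKM in *zmnac128 zmnac130*, against 4386 and 3163 FPKM in WT, with a log2 fold change of 1.46 ± 0.24 and rank 2 in the mutant, against 16 in WT. Zm00001eb267120 had 6451 and 5038 FPKM in the mutant and 1704 and 1863 FPKM in WT, a log2 fold change of 1.68 ± 0.19, and entered the 10 highest genes of the mutant. Zm00001eb246370 had 1572 and 1917 FPKM in the mutant and 551 and 515 FPKM in WT, a log2 fold change of 1.70 ± 0.14. The mutant libraries were high together in all 3, and WT replicate 2 was below WT replicate 1 in Zm00001eb032690 and Zm00001eb246370. Without WT replicate 1 and without WT replicate 2, limma gave Zm00001eb032690 adjusted p of 0.196 and 0.338, Zm00001eb267120 0.132 and 0.118, and Zm00001eb246370 0.0466 and 0.0529. Zm00001eb168910 had 2189 and 2265 FPKM in the mutant and 709 and 718 FPKM in WT, a log2 fold change of 1.64 ± 0.12, with adjusted p of 0.0535 and 0.0541 in those fits of limma. The other members called higher were Zm00001eb281380, Zm00001eb037520, Zm00001eb159060 and Zm00001eb330880, with log2 fold changes of 1.25, 1.32, 1.25 and 1.02, and all 4 lost their calls in both fits. None of these genes carries a description.

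**Figure D3:**
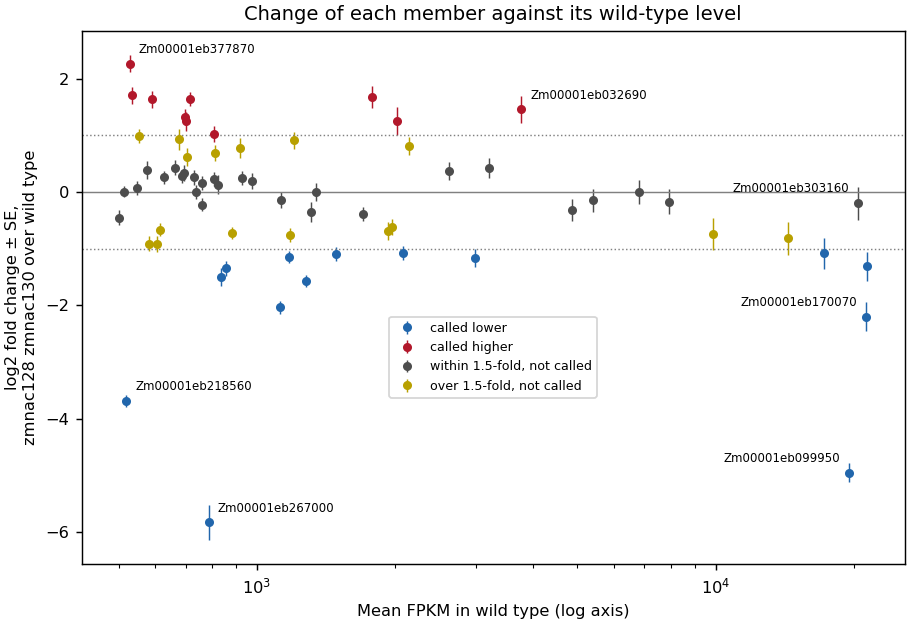
Log2 fold change of each member (y axis, mutant over WT, bars are limma standard errors) against its mean FPKM in WT (x axis, log scale), with dotted lines at 2-fold. The 10 members called higher have WT means of 528 to 3774 FPKM, and 4 of the 5 most abundant members lie below the lower dotted line.

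The members that stayed within 1.5-fold were 27, with WT means between 500.7 and 20444 FPKM. Their summed share was 11.3 ± 0.495% of all FPKM in *zmnac128 zmnac130* and 11.1 ± 0.237% in WT, a difference within the spread between libraries. The genotypes overlapped for 8 of the 27, and 3 had an adjusted p below 0.05 (limma) at a change of less than 1.5-fold. For all 27 the 95% interval of the log2 fold change lay within 2-fold, and for 15 it lay within 1.5-fold, while for the others a change of 1.5-fold was inside the interval.

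Several of the most abundant genes belonged to this group. Zm00001eb303160 had 19580.0 and 16226 FPKM in *zmnac128 zmnac130* and 21264 and 19624 FPKM in WT, and its log2 fold change was -0.20 with an interval of -0.91 to 0.52. It was the most abundant gene of the mutant and the third of WT. Zm00001eb166660 had 7688 and 6431 FPKM in the mutant and 7782 and 8047 FPKM in WT, a log2 fold change of -0.17 ± 0.22. The mutant values lay below the WT values in both genes, by less than the spread allows to be told from 0. Zm00001eb335880 had 6407 and 7252 FPKM in the mutant and 7296 and 6351 FPKM in WT, and the genotypes overlapped, with a log2 fold change of 0.00 and an interval of -0.52 to 0.52. Zm00001eb335880 shared the 3 smallest changes with Zm00001eb055850, which had 679 and 803 FPKM in the mutant and 729 and 747 FPKM in WT, and with Zm00001eb327430, which had 1214 and 1467 FPKM in the mutant and 1442 and 1245 FPKM in WT. Libraries of both genotypes were interleaved in these genes. None of the members within 1.5-fold carries a description.

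Of the 16 members that changed by more than 1.5-fold without a call, 9 had lower and 7 had higher means in the mutant, and 14 had an adjusted p below 0.05 (limma). The exceptions were Zm00001eb171930 and Zm00001eb382030, both among the 10 most abundant members. Zm00001eb171930 had 10111 and 6615 FPKM in *zmnac128 zmnac130* and 14939 and 13901 FPKM in WT, with a log2 fold change of -0.82 ± 0.29 and an adjusted p of 0.0656 by limma. Zm00001eb382030 had 6399 and 5193 FPKM in the mutant and 11878 and 7873 FPKM in WT, with a log2 fold change of -0.75 ± 0.28 and an adjusted p of 0.0752 by limma. The mutant libraries were below the WT libraries in both genes, but the mutant libraries of the first and the WT libraries of the second stood far apart from each other. Zm00001eb281900, with 1167 and 1034 FPKM in the mutant and 579 and 527 FPKM in WT, was just short of the fold threshold, at a log2 fold change of 0.99.

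The order of the members changed between genotypes. By mean FPKM, 57 members were still at 500 FPKM or more in *zmnac128 zmnac130*, in each mutant library as well as in the mean, and 10 were below. The members held ranks 1 to 6810 in the mutant and 1 to 74 in WT, with a median rank of 40 in both. A better rank in the mutant was found for 28 members, a worse rank for 37 and the same rank for 2. In the mutant 57 members were among the 100 highest genes and 3, Zm00001eb350070, Zm00001eb218560 and Zm00001eb267000, were outside the 200 highest. Of the 10 highest genes, 7 were shared between the genotypes, of the 50 highest 35 and of the 100 highest 74. Between the libraries of 1 genotype, 10 of 10, 47 of 50 and 95 of 100 were shared in the mutant, and 9 of 10, 47 of 50 and 95 of 100 in WT. Across the members, the Spearman correlation was 0.98 between the mutant libraries, 0.96 between the WT libraries and 0.56 to 0.60 between libraries of different genotypes (n = 67 genes, which share the libraries and are not independent).

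**Figure D4:**
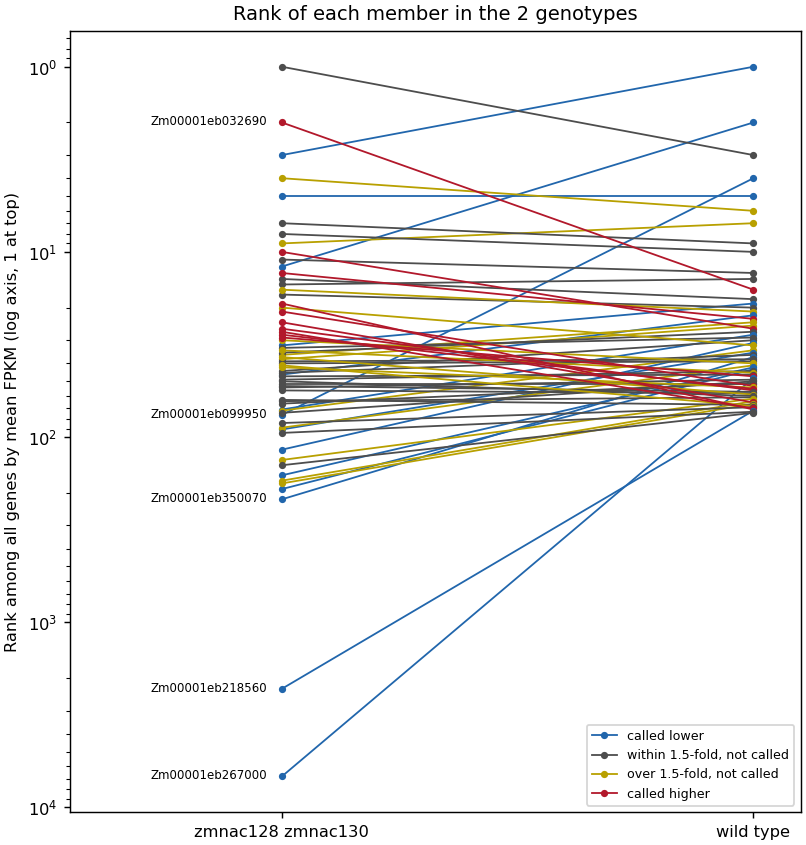
Rank of each member among 44303 genes by mean FPKM, in *zmnac128 zmnac130* (left) and WT (right), on a log axis with rank 1 at the top. Lines of most members called lower run down to the left, with Zm00001eb171940 level at rank 5, as far as rank 2290 for Zm00001eb218560 and 6810 for Zm00001eb267000, and Zm00001eb032690 stands at rank 2 in the mutant.

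At 500 FPKM or more, the mutant had 98 genes and WT had 74. The 62 genes at that level in both were 63.3% of the genes in the mutant and 83.8% of those in WT. The other 36 genes in the mutant had a median WT level of 385 FPKM. One of them, Zm00001eb341550, was the only gene from outside the members in the 10 highest of the mutant. It had 8236 and 8199 FPKM in *zmnac128 zmnac130* and 247 and 248 FPKM in WT, a log2 fold change of 5.05 ± 0.12, and stood at rank 6 in the mutant and 204 in WT. It carries no description.

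The threshold cut through a run of similar levels. The members just inside were Zm00001eb415460, with 506 and 526 FPKM in *zmnac128 zmnac130* and 527 and 499 FPKM in WT, and Zm00001eb166670, with 406 and 329.6 FPKM in the mutant and 487 and 515 FPKM in WT. Just outside were Zm00001eb070780, with 30.4 and 49.4 FPKM in the mutant and 482 and 513 FPKM in WT, and Zm00001eb264480, with 251 and 251 FPKM in the mutant and 512 and 479.8 FPKM in WT. In both WT libraries, 65 of the 67 members reached 500 FPKM.

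Some members lie close to each other in the file, which lists genes by ID. In 5 groups, neighbouring members were separated by no more than 10 rows. The largest group holds 4 members, Zm00001eb166600, Zm00001eb166650, Zm00001eb166660 and Zm00001eb166670, none of which was called, with log2 fold changes of -0.32, -0.15, -0.17 and -0.45. The stretch as a whole did not hold its level. Zm00001eb166610 and Zm00001eb166620, left out by the rule, lie inside it by ID. Zm00001eb166610 had a WT mean of 6493 FPKM at rank 11 and stood at rank 18 in the mutant. Just before the group by ID, Zm00001eb166580 and Zm00001eb166590 rose, with log2 fold changes of 4.84 and 2.67. Another holds Zm00001eb171930, Zm00001eb171940 and Zm00001eb171970, with log2 fold changes of -0.82, -1.08 and 0.39. Neighbours thus did not always move together. Zm00001eb267000, at -5.82, and Zm00001eb267010, at -0.69, are adjacent rows. Zm00001eb166940, at -1.16, and Zm00001eb166960, at 0.42, went in opposite directions, the second without a call. The left-out Zm00001eb166950 lies between them by ID.

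The shortest gene length that gives whole fragments was a median of 1056 bases for the members and 1869 bases for all genes tested, 1091 bases for the members called lower and 2032 bases for those called higher. Where the fragments of a gene share a common factor, the true length is longer. Zm00001eb115230 had the shortest length of the members, 89 bases, and Zm00001eb051210 had 150 bases, no longer than the study's reads of 150 bases. FPKM divides by length, so the levels of such short genes, and their place among the members, are less certain. Descriptions reach few of the members. Of the 67, 10 are among the study's 243 highly and differentially expressed genes (8 lower and 2 higher), 9 carry a description and 5 matched RefSeq, while 58 have no description. Those 243 genes were selected for their change in these samples among others, so the described members are a selected part, and 14 called members (6 lower and 8 higher) are outside that list.

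Markers of cell types could be matched only through descriptions and names that the study gives to genes it had selected for their change in these samples among others, so their direction was fixed by that selection. Of the 7 genes described as zeins, 3 are members and 4 are among the genes left out by the rule. The 7 summed to 20579 and 15173 FPKM in *zmnac128 zmnac130*, against 57564 and 56629 FPKM in WT. The matched markers of the basal endosperm transfer layer, *ZmSWEET4c* and *betl3*, summed to 122 and 90.6 FPKM in the mutant and 289 and 342 FPKM in WT, and a caleosin, a marker of aleurone and embryo, had 17.0 and 15.6 FPKM in the mutant and 56.1 and 64.5 FPKM in WT. None of these markers was at 0 in a library, and their part in the changes of the members was not tested. The genes outside the members summed to 414292 and 434163 FPKM in the mutant libraries and 401554 and 406407 FPKM in the WT libraries. With each library scaled to the sum of these other genes, the median log2 fold change was -0.07 over the members and -0.05 over all genes tested, and 23 of the 24 calls were kept.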

How the data were processed

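Total RNA of 16-DAP endosperms was sequenced as paired-end reads, for which the authors used HISAT2 and the B73 assembly RefGen_v5. The authors deposited FPKM values per gene, scaled within each library. No source used here names the program that made them. Names came from the study's gene descriptions and from RefSeq through their accessions.

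Replicate 3 repeats replicate 1 and was left out. Members were taken by WT mean FPKM, and log2(FPKM + 1) was compared with limma 3.58.1 in R 4.3.3 (lmFit, eBayes with trend, two-sided) on the 19082 genes whose mean reached 1 FPKM, with 2 residual and 4.04 prior degrees of freedom. The pseudocount of 1 has little effect at these levels. Fragments and depth were recovered from the steps of the FPKM values, where all 33589 genes above 0 gave whole fragments within 0.002. Shares, ranks and sums were computed in Python 3.11.15 with pandas 2.3.3. An exact permutation test of the share cannot go below p = 0.333 with 2 libraries per genotype, and the share gave p = 0.333. The fit was also run on simulated data with the same dispersion for all genes and fewer changed genes than these data hold. That run checks the code and does not bear on how sure the calls of the members are.

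Members and gene lists were chosen with earlier results of these data known. Named genes are the members with a description, the 10 highest in WT, the 5 largest rises and falls without overlap, the 3 smallest changes, the neighbours of the threshold and genes entering the 10 highest in *zmnac128 zmnac130*. The other called members, the uncalled members near a threshold or near each other in the file, and the markers were named after their values were seen. So were the genes outside the members that lie beside them in the file. Alternatives were other pseudocounts, filters, scalings, eBayes without trend, limma voom on recovered fragments, a replicate block, no fold threshold, other rules for membership and leaving out each library. No sequences of the members were used here.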

Additional observations from a re-analysis of the deposited data

How the results depend on the processing

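No called member changed direction under any alternative fit, and pseudocounts of 0.1 and 10, a filter at 10 FPKM, eBayes without trend and limma voom on recovered fragments kept all 24 calls. Without a fold threshold, 23 members passed lower and 18 higher. Leaving out 1 library gave 7 to 15 members called lower and 1 to 11 called higher, and a median log2 fold change of -0.098 to 0.045, and the share of FPKM was 26.0% to 28.3% in *zmnac128 zmnac130* and 33.4% to 35.4% in WT. Without WT replicate 1 or 2, 9 of the 24 calls were kept each time, with 11.5% and 10.8% of all genes called. In each of the 4 fits that leave out a library, the call was kept by 7 of the members called lower, among them Zm00001eb099950, Zm00001eb267000, Zm00001eb218560 and Zm00001eb350070, and by 1 called higher, Zm00001eb377870. The lone library is assumed to vary like the other genotype. The deviations of same-numbered libraries had a correlation of -0.08 over the genes tested. With so few libraries this cannot decide whether the libraries were paired. With a replicate block 22 calls were kept, and Zm00001eb171940 and Zm00001eb267570 were lost. Zm00001eb171940 was also lost with median-of-ratios scaling and without a filter, which also lost Zm00001eb267570 and Zm00001eb281380. Without mutant replicate 2, Zm00001eb171940 fell short of the fold threshold, at a log2 fold change of -0.85. Zm00001eb355990 was lost with TPM, and Zm00001eb330880 with scaling to the genes outside the members. The cause of these losses was not tested. The median log2 fold change was 0.081 with TPM, which moved the median of all genes to 0.079, and -0.070 with scaling to the genes outside the members. For the members at 1000 FPKM or more in WT, 32.3% were called lower and 9.68% higher, with a median log2 fold change of -0.39. Their shares of FPKM were 21.2% in *zmnac128 zmnac130* and 30.3% in WT. At 250 FPKM or more in WT, again without the 7 genes, 17.4% were called lower and 8.72% higher. Of that set, 44.1% were at 500 FPKM or more in the mutant, and the shares were 35.5% in the mutant and 41.6% in WT. Chosen by the mean of both genotypes, the median was 0.28, and the shares were 31.2% in the mutant and 35.2% in WT. With the 7 genes kept in, the median was -0.16, and the shares were 28.7% in the mutant and 39.4% in WT. Shares of fragments were 22.6% in the mutant and 26.9% in WT. The precision is limited by the number of libraries, 2 per genotype.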
